A study of Bombyx mori with 2 samples.

Results

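The genes described here are 4 glycoside hydrolases of the silkworm *Bombyx mori*, chosen by their gene ids from the 12376 genes of the expression table. They are *BGIBMGA004000*, named alpha-N-acetylgalactosaminidase, *BGIBMGA006066*, named maltase 1-like, and *BGIBMGA010811* and *BGIBMGA010812*, both named lactase-phlorizin hydrolase-like. The names are those of the best BLAST hit in the table. All 4 were picked with their difference between these libraries known, so that difference is given as a description and was not tested.

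Digital gene expression (DGE) profiles had been made of heads taken before the molt of the 2nd instar, 1 library from the wildtype strain C603 and 1 from the *nm2* mutant, each pooled from 6 larvae. The *nm2* mutation arose in the variety C603 and is a deletion inside the coding sequence of *BmCPG10*, which encodes a cuticular protein. Mutant larvae look normal in the 1st instar, fail to shed the cuticle in the 2nd and die days later. Both strains were reared on fresh mulberry leaves, and no agent was given to either. The paper states that the mutant eats less leaf and hardly develops, so food intake differed as well. The paper also states that the titer of the molting hormone ecdysone is lower in the mutant. Feeding the active hormone or cholesterol is said to rescue such larvae. The comparison asks which genes differ in expression when *BmCPG10* is altered. With 1 library per strain there is no replicate check and no test between the strains. Strain, pool, library, food intake and ecdysone titer cannot be told apart.

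Glycoside hydrolases cut the bond between a sugar and its neighbour. In plant-feeding insects, amylases, alpha-glucosidases (maltases), beta-glucosidases and beta-fructofuranosidases of the midgut break down the starch, disaccharides and plant glycosides of the leaf, while trehalase splits trehalose, the blood sugar of insects. Alpha-N-acetylgalactosaminidase is known from vertebrates as a lysosomal enzyme that removes terminal N-acetylgalactosamine from glycoproteins and glycolipids, so its name alone does not place it among digestive enzymes.

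The study had also designed qRT-PCR primers for these genes. They are shown because those of the lactase-like genes have long runs in common. In the following lines, from 5′ to 3′, capitals mark the run of bases that the primers of *BGIBMGA010811* and *BGIBMGA010812* have in common.
BGIBMGA004000 forward: tgaacagagacattatagccgtca
BGIBMGA004000 reverse: gtcccgataactcacaaatgcc
BGIBMGA006066 forward: tacctggttactcacgaagcgta
BGIBMGA006066 reverse: ataaacagttatcggttcaatcagc
BGIBMGA010811 forward: tgccaaacaGCATTTATGACGTG
BGIBMGA010811 reverse: gaaaAGTCAACCTCGTACAAACCGAA
BGIBMGA010812 forward: GCATTTATGACGTGctgacaca
BGIBMGA010812 reverse: AGTCAACCTCGTACAAACCGAAa
The forward primers of the 2 lactase-like genes shared 14 bases, which end the primer of *BGIBMGA010811* and begin that of *BGIBMGA010812*. Their reverse primers shared 22 bases. Among the other 26 of the 28 pairs of these 8 primers, the longest run in common on either strand was 9 bases. Both primers of 1 lactase-like gene thus repeat most letters of those of the other, and whether either primer pair amplifies only its own gene was not tested.

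Levels are given in FPKM, fragments scaled to the length of the gene and the size of the library, which is a level per length. Differences are log2((*nm2* + 1)/(C603 + 1)) in FPKM, a scale that understates the change of weakly expressed genes. Ratios are of FPKM with nothing added. The 95% intervals come from reads recovered from the FPKM and cover counting error only, not the spread between larvae or libraries. All read counts and intervals rest on library totals inferred from the FPKM. The libraries held 12912619 (C603) and 12900347 (*nm2*) clean reads, of which 55.48% and 60.12% mapped to genes. Here a gene is called higher or lower if its level reached 5 FPKM in at least 1 library and its log2 difference was at least 1 in size. Of 9158 genes at this level, 8.83% were higher and 15.0% lower in the *nm2* library by this rule. Rescaling the *nm2* library to a median log2 ratio of 0 turned these shares into 12.3% and 9.96%, since the median log2 ratio was -0.28 among the 7607 genes that reached 5 FPKM in both. The reference genes *RPL3*, *GAPDH* and *BmActin3* differed by -0.16, -0.24 and 0.23 on the log2 scale. Genes described as under or within 2-fold had a log2 difference smaller than 1 in size. For weakly expressed genes the ratio with nothing added can then be somewhat larger than 2-fold.

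*BGIBMGA004000* was the member with the lower level in the mutant. It stood at 512 FPKM (489 to 536) in C603 and at 13.05 FPKM (9.75 to 17.1) in the *nm2* mutant. In C603 it lay above 97.3% of all genes and in the mutant above 57.3%. The C603 level was 39.2 times that of the mutant (29.8 to 52.7), a log2 difference of -5.19. Counting the gene itself, 77 of the 9158 genes differed at least as far in this direction. The counts behind these levels were 1894 reads in C603 and 52 in the *nm2* library, so the mutant level is the less precise.

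*BGIBMGA006066*, whose relatives release glucose from maltose, ran the other way. It had 6.52 FPKM (4.93 to 8.47) in C603, close to the limit of 5 FPKM, and 141 FPKM (133 to 149) in the mutant. The mutant level was 21.6 times the C603 level (16.5 to 28.7), a log2 difference of 4.24 that 39 genes, itself included, reached. The paper marks its qRT-PCR result for *BGIBMGA006066* as contradicting the DGE difference. For the other members it marks both methods as going the same way. In the DGE libraries *BGIBMGA006066* went from above 35.4% of genes to above 93.5%, on 56 and 1301 reads.

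The 2 lactase-phlorizin hydrolase-like genes were also higher in the mutant. The mammalian enzyme of this name cuts lactose and the plant glucoside phlorizin at the intestinal surface, and insect proteins that resemble it are beta-glucosidases. *BGIBMGA010811* had 16.2 FPKM (12.9 to 20.1) in C603 and 119 FPKM (110 to 129) in the mutant, a ratio of 7.36 (5.82 to 9.38) and a log2 difference of 2.81. *BGIBMGA010812* had 68.7 FPKM (62 to 75.8) in C603 and 376 FPKM (361 to 392) in the mutant, a ratio of 5.48 (4.92 to 6.12) and a log2 difference of 2.44. The intervals of these ratios overlap here, but not if the reads mapped to genes are taken as library totals (6.21 to 8.75 and 5.06 to 5.93). *BGIBMGA010812* was the more abundant per length in both libraries.

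**Figure D1:**
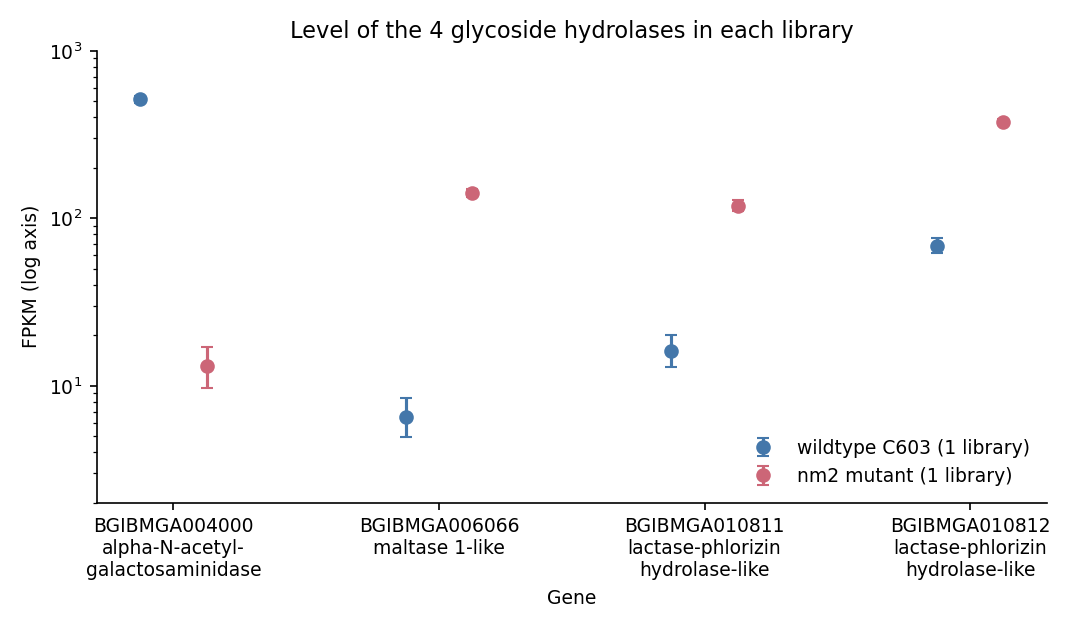
FPKM (log axis) of the 4 genes in the wildtype C603 library and the *nm2* library. Points are the values of single libraries and bars are 95% counting intervals. *BGIBMGA004000* lies at 512 and 13.05 FPKM, and the other 3 genes have their higher point in the mutant.

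Since the lactase-like members have the same best BLAST hit, the way reads were divided between them could set their separate levels. *BGIBMGA010811* held 17.4% (14.1 to 21.1) of the 466 reads of the pair in C603 and 22% (20.5 to 23.5) of the 2914 reads in the mutant. These intervals overlap slightly, and most reads of the pair went to *BGIBMGA010812* in both libraries. Taken as 1 gene, the pair had a ratio of 5.81 (5.26 to 6.41) and a log2 difference of 2.51, between those of its members.

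Summed over the 4 genes, the level was 603.5 FPKM in C603 and 649 FPKM in the mutant. These sums lie close together because the lower gene and the 3 higher genes nearly balanced. *BGIBMGA004000* supplied most of the C603 sum and *BGIBMGA010812* most of the *nm2* sum.

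The other enzymes of sugar breakdown were taken from 7 lists made by BLAST name. Not all of them are digestive, since the lists hold the alpha-galactosidase family, the trehalases and a lysosomal alpha-glucosidase-like gene. The lists also hold family 31 glucosidases that are named uncharacterized. The lists held 38 genes, of which 30 reached 5 FPKM in a library. Of these 30, 11 were higher and 4 lower in the mutant. Without the 4 members, 26 genes remained, of which 8 were higher and 3 lower, and their median log2 difference was 0.75, beside -0.30 for all 9158 genes and the shares of 8.83% and 15.0% given above. The lists, like the members, were drawn up with earlier results of these data known.

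In the alpha-galactosidase family, which takes terminal galactose or N-acetylgalactosamine off glycans and glycolipids, 2 of 2 genes at 5 FPKM were lower. This stands beside 15.0% of all genes, and the count includes the picked *BGIBMGA004000*. The second was *BGIBMGA009518*, named alpha-N-acetylgalactosaminidase-like after a protein labelled low quality, with 169 FPKM in C603 and 14.1 FPKM in the mutant. Its mutant level was 0.0837 times the C603 level (0.0515 to 0.130) and rests on 22 reads. The listed coding length was 420 bases, beside 1017 for *BGIBMGA004000*, and whether the 2 genes share reads was not tested. The last gene of the family, *BGIBMGA013988*, named alpha-galactosidase A-like, stood at 4.02 and 4 FPKM, under the limit in both libraries, and is named outside the naming rule after its values were seen. *BGIBMGA004000* made up 74.8% of the summed FPKM of the family in C603 and 41.9% in the mutant, while the sum went from 685 to 31.2 FPKM.

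In the alpha-glucosidase family, 3 of 8 genes at 5 FPKM were higher, none was lower, and the other 5 differed by less than 2-fold. These stand beside 8.83% higher and 15.0% lower over all genes, and the count includes the picked *BGIBMGA006066*. Besides the maltase 1-like *BGIBMGA006066*, the higher genes were *BGIBMGA007197*, at 3.19 and 10.9 FPKM, and *BGIBMGA007198*, at 7.10 and 19.8 FPKM. Both were named uncharacterized family 31 glucosidase and had the same best BLAST hit, so their reads too may have been divided between them. Among the genes named maltase, sucrase-isomaltase or lysosomal alpha-glucosidase, only the picked *BGIBMGA006066* was higher. The most abundant gene in both libraries was *BGIBMGA007153*, also named uncharacterized family 31 glucosidase, at 236 FPKM in C603 and 260 FPKM in the mutant. *BGIBMGA006066* moved from the 7th to the 2nd most abundant of the 10 genes and from 1.6% to 21.8% of the summed FPKM.

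In the beta-glucosidase family, 5 of 10 genes were higher and 1 was lower, beside 8.83% and 15.0% over all genes. The higher genes include the picked *BGIBMGA010811* and *BGIBMGA010812*. The lactase-like *BGIBMGA010536* had 5.59 FPKM in C603 and 53.4 FPKM in the mutant, a ratio of 9.55 (6.64 to 14.4). Its partner with the same best hit, *BGIBMGA010537*, had 16.3 and 56.8 FPKM, a ratio of 3.49 (2.76 to 4.43). *BGIBMGA010536* held 25.0% (17.7 to 33.6) of the 124 reads of this pair in C603 and 47.9% (44.1 to 51.8) of the 670 reads in the mutant, and these intervals do not overlap. All 4 lactase-like genes at 5 FPKM were higher, but they form 2 pairs, each with a single best hit. A further 2 lactase-like genes had less than 1 FPKM in both libraries. The other higher gene was the myrosinase-like *BGIBMGA010735*, at 2.08 and 6.84 FPKM. *BGIBMGA010537* and *BGIBMGA010735* fall outside the naming rule and were chosen after their values were seen. The lower gene was *BGIBMGA005785*, named after myrosinase, the plant enzyme that cuts glucosinolates. It was the most abundant of the family in C603, at 113 FPKM, and had 21.2 FPKM in the mutant, a ratio of 0.188 (0.153 to 0.228). *BGIBMGA010811* and *BGIBMGA010812* together held 26.2% of the summed FPKM of the family in C603 and 61.9% in the mutant.

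**Figure D2:**
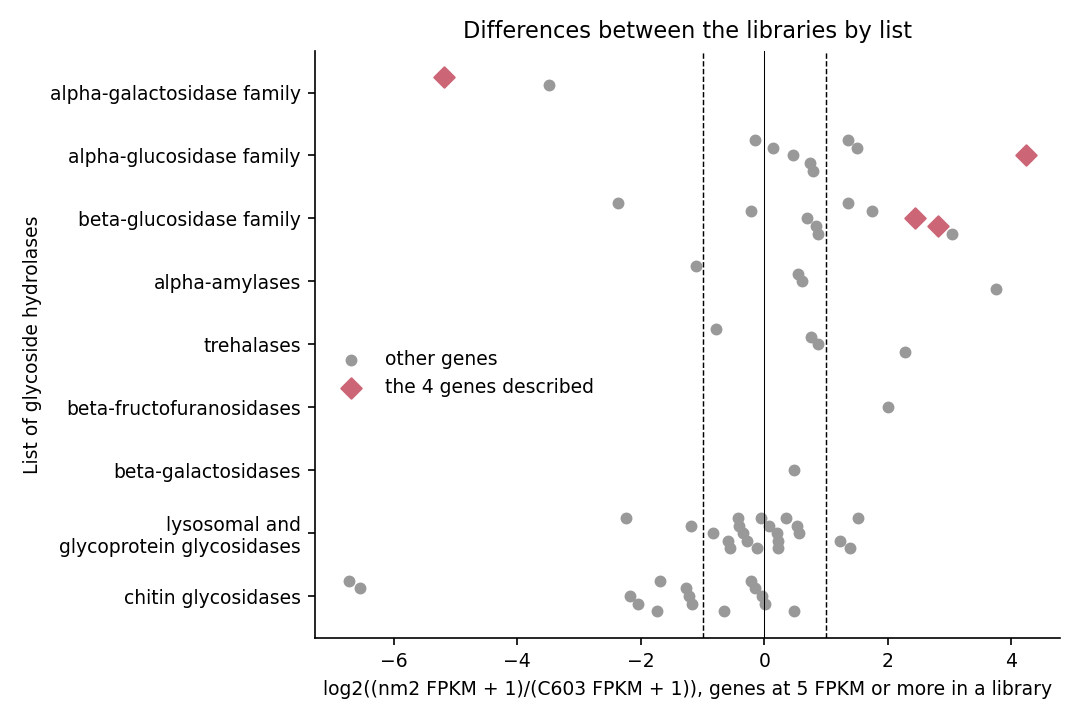
log2 difference between the *nm2* and C603 libraries for each glycoside hydrolase at 5 FPKM or more in a library, by list, with the 4 genes described as diamonds and dashed lines at -1 and 1. *BGIBMGA004000* lies at -5.19 in the alpha-galactosidase family, whose 2 points are both below -1, while the alpha- and beta-glucosidase families lie mostly above 0.

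The remaining lists were small, and their counts are read against the same shares of 8.83% higher and 15.0% lower over all genes. Of 4 alpha-amylases, the enzymes that cut starch, 1 was higher and 1 lower. *BGIBMGA001094* was listed at 0 in C603 and at 12.4 FPKM in the mutant, and *BGIBMGA005240* had 20.6 and 9.06 FPKM. The most abundant amylase, *BGIBMGA003057*, had 53.0 and 81.4 FPKM. Of 4 trehalases, only *BGIBMGA005664* was higher, at 41.7 and 207 FPKM, a ratio of 4.96 (4.35 to 5.67). The beta-fructofuranosidase *BGIBMGA005696*, a sucrose-cutting enzyme, was higher as well, at 39.1 and 159 FPKM, a ratio of 4.08 (3.51 to 4.76). The beta-galactosidase *BGIBMGA006815* had 71.9 and 101 FPKM, under 2-fold.

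**Figure D3:**
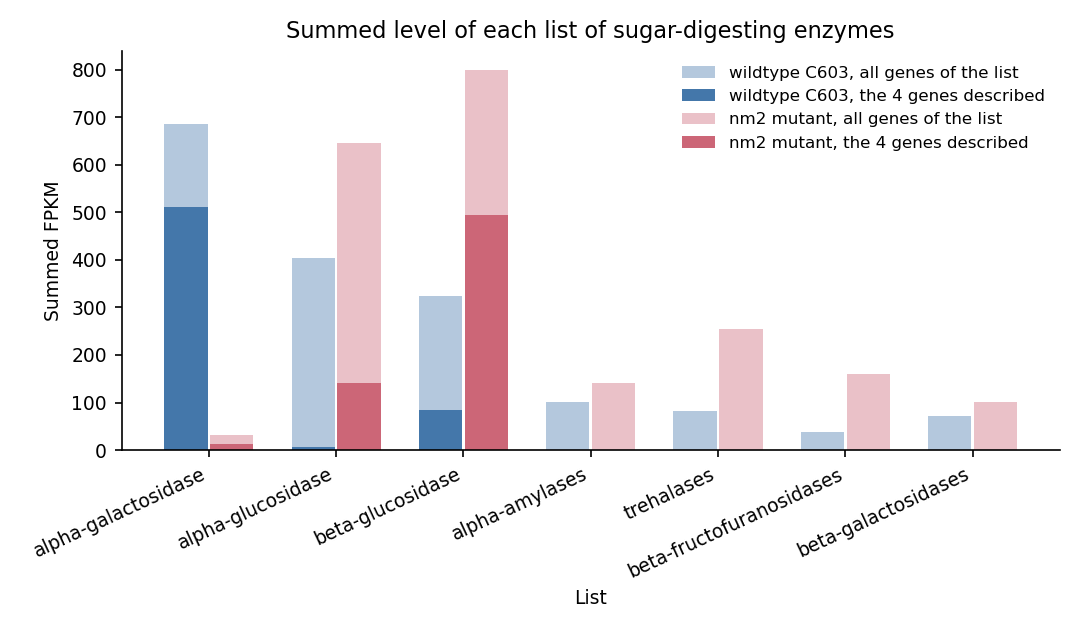
Summed FPKM of the 7 lists made by BLAST name in C603 (blue) and the *nm2* mutant (red), with the share of the 4 genes described in the darker shade. The alpha-galactosidase sum goes from 685 to 31.2 FPKM, and the beta-glucosidase sum from 324 to 800 FPKM.

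Glycosidases outside these 7 lists were counted by the same rule, beside the same shares of 8.83% and 15.0% over all genes. Of 21 lysosomal and glycoprotein glycosidases at 5 FPKM, 3 were higher, 2 lower and 16 within 2-fold, with a median log2 difference of -0.05. The fucosidase-like *BGIBMGA006905*, the most abundant in C603, had 241 and 50.1 FPKM. The higher genes were *BGIBMGA012267* at 11.8 and 35.6 FPKM, *BGIBMGA002426* at 30.1 and 80.6 FPKM and *BGIBMGA010386* at 2.47 and 7.08 FPKM, named as mannosidases in the first pair and as a glucosylceramidase in the last. The glucosidase AB-like *BGIBMGA000132*, most abundant in the mutant, had 176 and 205 FPKM. Of 15 chitin glycosidases, which break down the old cuticle at a molt, 9 were lower and none higher. The chitinases *BGIBMGA008709* (748 and 6.99 FPKM) and *BGIBMGA010240* (462 and 3.39 FPKM) differed most, with log2 differences of -6.55 and -6.72. The beta-N-acetylglucosaminidase *BGIBMGA005899* had 205 and 44.7 FPKM, and the chitinase-related *BGIBMGA006874* had 84.8 and 19.7 FPKM. The chitinase 3-like *BGIBMGA007899*, most abundant of the list in the mutant, had 329 and 283 FPKM.

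The KEGG pathway tables, which name only genes that the authors had called differentially expressed, placed all 4 members under galactose metabolism, among 22 genes of which 16 had the higher level in the mutant and 6 the lower. *BGIBMGA004000* also stood under lysosome, glycerolipid metabolism, sphingolipid metabolism and the globo series of glycosphingolipid biosynthesis, and not under carbohydrate digestion and absorption. *BGIBMGA006066* stood under starch and sucrose metabolism, where 12 of 14 genes had the higher level in the mutant. *BGIBMGA010811* and *BGIBMGA010812* were listed under carbohydrate digestion and absorption, where 7 of 9 had it. Of all 1727 genes that the authors listed, 37.7% had the higher level in the mutant, and these pathway counts include the members, which were picked for their difference. The counts are not separate results. The hexokinase-like *BGIBMGA004595* and *BGIBMGA011477* stood under galactose, starch and sucrose, and carbohydrate digestion alike. The other higher genes under carbohydrate digestion were beta-glucosidases already counted above.

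Genes were matched to the RefSeq assembly ASM3026992v2 only by the protein identifier of their best BLAST hit. Of the 4 members, *BGIBMGA004000* alone found a match in this way. Sequences were not compared, so a missing match does not show that the assembly lacks the gene. Next to it in the RefSeq order lay *BGIBMGA004001*, named 3-hydroxy-3-methylglutaryl-CoA synthase, an enzyme that makes a precursor of isoprenoids, at 78.1 FPKM in C603 and 12.5 FPKM in the mutant. On the other side lay *BGIBMGA004126*, named ankyrin repeat and LEM domain-containing, at 3.21 and 5.81 FPKM. Only the former differed in the direction of *BGIBMGA004000*.

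The head samples also held transcripts of genes usually read as midgut markers. These lists were matched by words in the BLAST names. Other genes thus fall in them, such as an NPEPL1-like aminopeptidase in the midgut list and a fibroinase in the silk gland list. The V-type ATPase subunits of the midgut list are not specific to midgut, and none of those at 5 FPKM differed by 2-fold. Of 38 midgut genes (alkaline trypsins, aminopeptidases N, V-type ATPase subunits and peritrophins), 34 reached 5 FPKM, 13 were higher and 4 lower, beside 8.83% and 15.0% over all genes, and the summed level was 16012 FPKM in C603 and 27094 FPKM in the mutant. Each library listed 1 of the 38 at 0. The most abundant, the alkaline trypsin *BGIBMGA003567*, had 6242 and 9634 FPKM, and the aminopeptidase N *BGIBMGA008060* had 41.9 and 714 FPKM, while the aminopeptidase N-12 genes *BGIBMGA010763* (196 and 28.7 FPKM) and *BGIBMGA010764* (250 and 27.6 FPKM) were lower. These 4 genes were chosen after their values were seen. The part of midgut RNA in the differences of the 4 members was not tested, and in pooled tissue fewer cells of a type and less RNA per cell cannot be told apart.

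The other tissue lists are read against the same shares of 8.83% higher and 15.0% lower over all genes. Of 21 fat body genes at 5 FPKM, 9 were higher and 2 lower, with sums of 15168 and 34024 FPKM. Of 65 epidermal cuticle genes, 37 were higher and 21 lower, with sums of 4954 and 48830 FPKM. The paper states that ecdysone regulates many cuticular protein genes, so this list does not measure the epidermis content of the heads. In it, *BGIBMGA011767* and *BGIBMGA014293* have the same name and the same values (1.96 and 511 FPKM), so 1 gene may be counted more than once. Of 8 silk gland genes, 1 was higher, 1 lower and 6 within 2-fold, with sums of 5916 and 7787 FPKM. The nerve list had 17 genes at 5 FPKM, of which 1 was higher, 1 lower and 15 within 2-fold, with sums of 357 and 303 FPKM. It was matched by words and also holds genes not limited to nerve, such as syntaxin 5A and syntaxin 6. Its counts therefore do not measure the nerve content of the heads. Its genes spanned a wide range, with the choline acetyltransferase *BGIBMGA013468* at 0.23 and 0.32 FPKM, the elav-like *BGIBMGA005888* at 17.7 and 4.78 FPKM, syntaxin 1A *BGIBMGA006590* at 17.4 and 16.8 FPKM and the ELAV-like *BGIBMGA008284* at 57.4 and 46.4 FPKM, all chosen after their values were seen. The part of these tissues in the results was not tested.

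The direction of each member was the same under every scaling and pseudocount tried, and with the lactase-like pair taken as 1 gene. *BGIBMGA004000* ranged from -5.29 to -4.93 on the log2 scale, *BGIBMGA006066* from 4.17 to 4.52, *BGIBMGA010811* from 2.51 (as 1 gene with its partner) to 3.09 and *BGIBMGA010812* from 2.40 to 2.72.

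**Figure D4:**
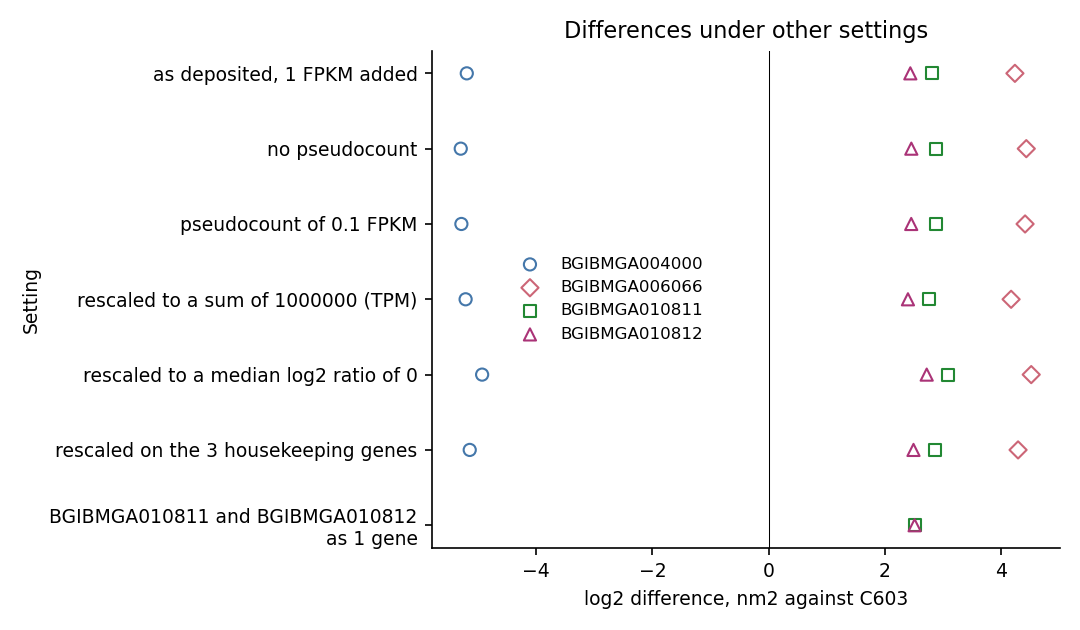
log2 difference of the 4 genes between the *nm2* and C603 libraries under each setting tried, with the value as deposited at the top. *BGIBMGA004000* stays between -5.29 and -4.93, and the other 3 genes between 2.40 and 4.52.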

How the data were processed

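Clean reads, 49 bases long, were aligned by the authors to genome and genes of SilkDB, and they estimated abundance with RSEM and deposited FPKM for 12376 genes. RSEM divides reads that fit several genes by estimate, which bears on the lactase-like pairs. The deposited mapping tables give read counts and percent of reads mapped. Of the clean reads, 4.67% (C603) and 6.83% (*nm2*) fitted several positions in genes. Columns of the authors' own comparison (fold, P, FDR) and their qRT-PCR values were not used. Strand and aligner settings are not given in the sources used here.

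A pseudocount of 1 FPKM was used. Reads were recovered for genes among the 1727 with a listed coding length by searching for the library total, less 36 bases of length, that made reads whole. In C603 90.4% of 240 values and in *nm2* 95.5% of 380 lay within 0.1 of a whole number. The totals found, 3770000 and 4061000, were 52.6% and 52.4% of the reads mapped to genes, and the reason was not tested. At the mapped totals only 20.0% and 20.8% of these values were whole. The search found the total in 4 of 4 simulated libraries. These were built from whole reads by the formula that the search inverts, so they check the code and not the real RSEM estimates. Totals as large as the reads mapped to genes lay outside the range searched. Intervals were exact Poisson for levels and exact binomial for ratios and shares, at 95%.

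Members, lists and rules were chosen with earlier results of these data known. Named genes were the members, the reference genes, up to 4 genes per glycosidase list past the size rule with the largest difference, the most abundant gene of each list in each library, and RefSeq neighbours. Of the 38 genes of the 7 lists, 21 matched RefSeq by the protein identifier of their best BLAST hit. Computations used SciPy 1.17.1, pandas 2.3.3 and NumPy 2.4.6 under Python 3.11.15, with plots by matplotlib 3.10.9.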

Additional observations from a re-analysis of the deposited data

How the results depend on the processing

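No paired analysis was possible because each strain had 1 library, and for the same reason no library could be left out. Alternatives were other pseudocounts (none, 0.1 FPKM), other limits (none, 20 FPKM), rescaling to TPM, to a median log2 ratio of 0 or on the 3 housekeeping genes, and the lactase-like pair as 1 gene. Of 22 such values of the members, 21 moved by less than the counting interval of the ratio, and the log2 difference of *BGIBMGA010812* moved to 2.72 under the median rescaling. Of 70 counts over the 7 lists, 65 stayed within 1.5 times, but many of these were counts of 0 or 1 that could hardly move. The higher beta-glucosidases, 5 in the main setting, were 4 at 20 FPKM and 7 under the median rescaling. Counts of the other glycosidase and tissue lists were not varied. At 20 FPKM the higher alpha-glucosidases fell to 1 and the higher alpha-amylases to 0. Under the median rescaling the higher alpha-glucosidases became 5, the lower alpha-amylases 0 and the higher trehalases 3. That rescaling moved the higher share of all genes called from 37.1% to 55.3%. Taking the reads mapped to genes as library totals, an alternative chosen after seeing the data, narrowed the interval of *BGIBMGA004000* to 32.2 to 48.6 times and that of *BGIBMGA006066* to 17.8 to 26.6. The less abundant side of each member rests on 52 to 385 reads, which limits the precision of its ratio.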
